A study of Mus musculus with 4 samples.

Results

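The open chromatin around Tnfaip3 was described in 2 types of mouse dendritic cells. Its members were the peak intervals and footprints of both cell types that overlap the window from 18.65 to 19.35 Mb of chromosome 10 (mm9), 700 kb that hold Tnfaip3 near 18.72 Mb and reach past it to the Ifngr1 side. The window held 70 of 83701 cDC1 intervals and 33 of 51941 pDC intervals. Merged where they overlap, these made 76 of the 93615 regions of the series. Footprints are short stretches inside a peak where the transposase cut less than on both flanks, as under a bound protein. The window held 389 of 513689 cDC1 footprints and 226 of 312959 pDC footprints. The members were selected by position alone, but the window was proposed with earlier results of these lists known, so their values are a description and no test was made of them. The nearest cDC1 intervals left out were at 18647504 to 18648029 and at 19379773 to 19380128. Their −log10 q, the significance that the peak caller MACS2 gave, was 59.3 and 14.2. The nearest pDC intervals left out were at 18647618 to 18647966 and at 19388733 to 19389194, with 14.1 and 16.3.

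The cells came from a bone marrow culture of mouse origin, in which Flt3 ligand followed a cytokine expansion phase, and flow cytometry separated the cell types. cDC1 (classical dendritic cells, CD11c+ CD11b+ XCR1+) are known for cross-presentation to cytotoxic T cells, and pDC (plasmacytoid dendritic cells, CD11c+ CD11b- B220+) for a strong interferon response to viruses. The sources used here give no strain, genotype, age or treatment beyond the culture. Each cell type had 2 replicate Omni-ATAC-seq libraries, which the authors merged into 1 list of peaks and 1 of footprints, so no replicate error can be given. The sources used here do not state the origin of the replicates. The cell type labels were not checked against marker genes, since an mm9 annotation was not used here.

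Tnfaip3 encodes A20, a ubiquitin-editing enzyme that is induced by NF-κB and then restrains NF-κB signalling downstream of TNF, Toll-like and other receptors. In dendritic cells it is known as a brake on activation. In the RefSeq annotation its next protein-coding neighbours are Perp on one side and Olig3, Ifngr1 and Il22ra2, in this order, on the other. Ifngr1 encodes the ligand-binding chain of the interferon gamma receptor, Il22ra2 a soluble binding protein for interleukin 22, and Olig3 a transcription factor of the nervous system. Tnfaip3 is read from the minus strand, so that positions above its start lie upstream of the gene. The stated position is a single point, and the extent of the gene in mm9 was not used here. Regions just above that point may therefore lie inside the gene.

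The promoter of Tnfaip3 is shown because A20 is a classic NF-κB target. The 250 bases before the outermost RefSeq start (GRCm38.p6, minus strand, chr10:19015411-19015660) read as follows, with matches to the searched motifs in capitals.
Tnfaip3 promoter: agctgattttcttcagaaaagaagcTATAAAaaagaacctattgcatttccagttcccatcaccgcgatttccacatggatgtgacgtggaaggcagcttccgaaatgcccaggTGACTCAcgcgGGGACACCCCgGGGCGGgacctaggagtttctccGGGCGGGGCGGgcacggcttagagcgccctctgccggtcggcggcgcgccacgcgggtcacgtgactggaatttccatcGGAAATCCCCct
The NF-κB consensus was matched at 125 to 116 bases and, on the other strand, at 12 to 3 bases before the start. The AP-1 motif TGANTCA was matched once and the Sp1 motif GGGCGG 3 times, with a base shared by the last 2 of these. TATAAA was matched once, 225 bases before the start. Neither the ETS type motif GAGGAA nor an IRF motif was matched. Of 32851 promoters in the table, searched on both strands, 3.9% held the NF-κB consensus, 6.75% TGANTCA, 32.7% GGGCGG, 12.4% TATAAA, 23.3% GAGGAA and 2.98% the IRF motif. The same 250 bases before the second listed Tnfaip3 start held none of these motifs. These matches are letters only. The sequence is of another genome build than the peak lists, so no interval or footprint was placed on it.

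The window's regions were split between the cell types in shares whose counting intervals held those of the series. Of the 76 regions, 27 (35.5%, 95% Wilson interval 25.7 to 46.7%) were shared by both lists. Another 43 (56.6%, 45.4 to 67.1%) were found in cDC1 only and 6 (7.89%, 3.67 to 16.2%) in pDC only. The corresponding shares over the whole series were 43.5%, 45.5% and 11%, and all of them lay inside the window's intervals. Seen from each list, 27 of 70 cDC1 intervals (38.6%, 28 to 50.3%) overlapped a pDC interval by at least 1 bp, against 49.1% of all cDC1 intervals. In pDC, 27 of 33 (81.8%, 65.6 to 91.4%) overlapped a cDC1 interval, against 80.3%. These intervals cover counting error only, and both whole-series shares lay inside them. The counts of each class follow the length of the lists and their limit on strength. With the cDC1 list limited to the pDC length, the window held 35 cDC1 and 33 pDC intervals, and 15 regions were found in cDC1 only and 13 in pDC only. The lists hold intervals down to a −log10 q of 1.3. At a limit of 10 in both, 21 of the 33 pDC intervals and 15 of the 27 shared regions were left. Among the shared regions described here, those at 18.729, 18.773, 18.960 and 19.242 Mb were under this limit in pDC and that at 18.680 Mb in cDC1. Intervals were dense here: 100 per Mb in cDC1 and 47.1 in pDC, against 34.0 and 21.3 per Mb of the autosomes. The median −log10 q of the cDC1 intervals was 18.1, against 30.4 in the whole list. In pDC the medians were 12.6 and 13.5.

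**Figure D1:**
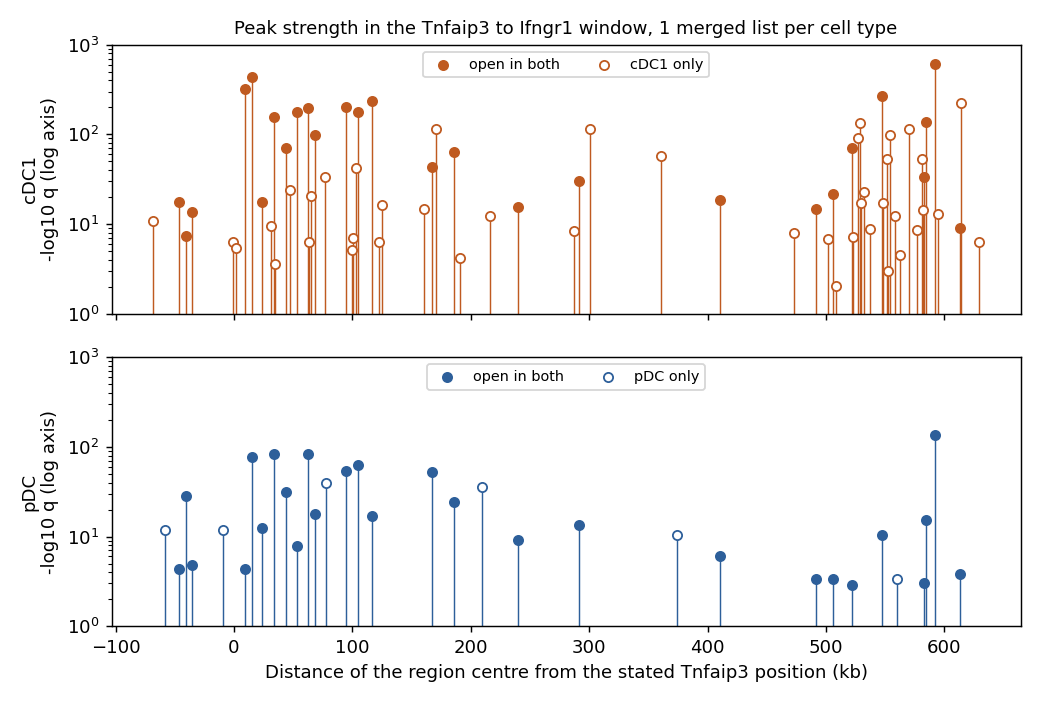
The −log10 q of each open region (y axis, log scale) by the distance of its centre from the stated Tnfaip3 position (x axis, kb), for cDC1 above and pDC below; filled points are open in both cell types and open points in one. In cDC1 the highest values, 603 and 432, lie at 592 and 15.1 kb, and the middle of the window is sparse in both lists.

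The regions formed a Tnfaip3 group and an Ifngr1 group with a thin stretch between them. Regions with gaps of at most 10 kb were joined into 18 clusters. The largest by number of regions was on the Ifngr1 side, from 19241924 to 19314685, with 23 regions: 5 shared, 17 of cDC1 only and 1 of pDC only. The next, from 18710841 to 18798306, holds the stated Tnfaip3 position and had 18 regions: 8 shared, 8 of cDC1 only and 2 of pDC only. The longest stretches without a region were 62.1 kb (19130383 to 19192507) and 59.4 kb (19020789 to 19080228). Summed over the cluster, cDC1 footprints held 31442 tags and pDC footprints 9906 around Tnfaip3, and 40877 and 4415 in the Ifngr1 cluster. The ratio of these sums, which are not scaled, was 3.17 in the former and 9.26 in the latter. Over the series the footprints held 185970648 tags in cDC1 and 44482493 in pDC. The ratio of these totals lies between those of the 2 clusters, above the former and below the latter. Such sums move with how much was called. The footprints behind them numbered 100 and 75 around Tnfaip3, and 112 and 30 in the Ifngr1 cluster.

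**Figure D2:**
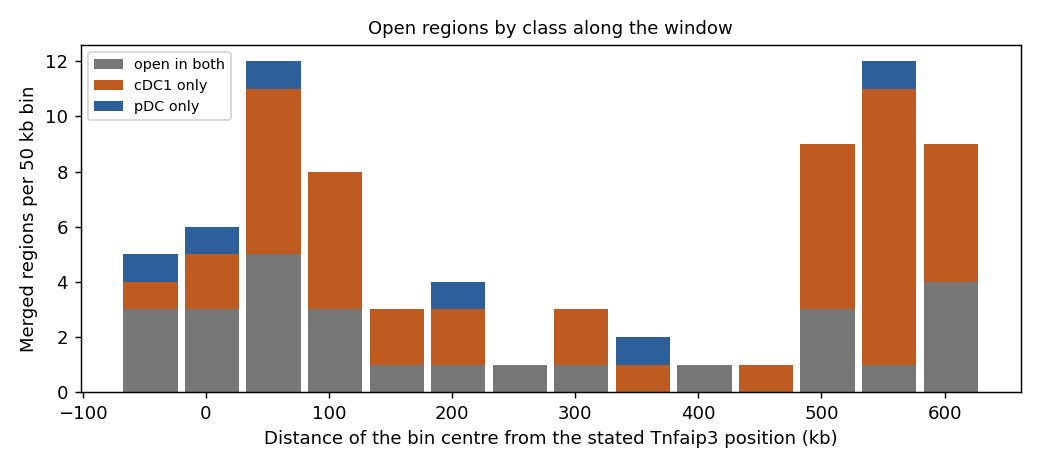
Number of merged regions per 50 kb bin (y axis) by the distance of the bin centre from the stated Tnfaip3 position (x axis, kb), stacked by class. The bins just above Tnfaip3 and those of the Ifngr1 side hold up to 12 regions each, and 10 of the 12 in the second such bin are cDC1 only.

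After these values were seen, the window was divided at its middle, 19 Mb. There were 35 cDC1 intervals on each side, but 21 pDC intervals on the Tnfaip3 side and 12 on the Ifngr1 side. The median −log10 q of the pDC intervals was 24.5 on the Tnfaip3 side and 4.94 on the Ifngr1 side. Of the cDC1 intervals, 48.6% (33.0 to 64.4%) were also open in pDC on the Tnfaip3 side and 28.6% (16.3 to 45.1%) on the Ifngr1 side, and these intervals overlap. The share over the series was 49.1%, close to that of the Tnfaip3 side. At a −log10 q of at least 10, 16 pDC intervals were left on the Tnfaip3 side and 5 on the Ifngr1 side. With the border moved down by 100 kb, the pDC intervals numbered 18 and 15 and the cDC1 intervals 31 and 39. The cDC1 sharing was then 48.4% and 30.8%. With the border moved up by 100 kb, the pDC intervals numbered 23 and 10 and the cDC1 intervals 39 and 31, with a sharing of 46.2% and 29%. The contrast in pDC counts thus depended on the border. With the cDC1 list limited to the pDC length, the sharing was 70.6% and 44.4%, against 57.1% in the whole window. No series share is given for this limit. Of the cDC1 footprints, 27.3% (21.5 to 33.9%) were shared with pDC on the Tnfaip3 side and 11.0% (7.3 to 16.2%) on the Ifngr1 side. Over the series this share was 26.9%, again close to that of the Tnfaip3 side. The last 2 intervals do not overlap, but neighbouring footprints are not independent.

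Peaks were also ranked within their own list. The percentile of an interval is the share of intervals of its own list with the same or a lower −log10 q. Among the 27 regions open in both cell types, the percentile was higher in cDC1 in 19 (70.4%, 51.5 to 84.1%), against 75.9% of all such regions of the series. On the Ifngr1 side it was higher in cDC1 in 10 of 10, and on the Tnfaip3 side in 9 of 17. The median difference, cDC1 minus pDC, was 25.7 percentile points over the 10 regions and 0.0838 over all 17. The cDC1 list is the longer one, so equal ranks do not mark equal strength, and the median difference over the series, 9.93 points, is the reference. The difference was above it in 8 of 10 regions on the Ifngr1 side (80%, 49 to 94.3%) and in 6 of 17 on the Tnfaip3 side (35.3%, 17.3 to 58.7%), and these intervals overlap. The 2 ranks had a Spearman correlation of 0.51 over the 27 regions and of 0.65 over all 40721, a description of regions that share libraries.

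**Figure D3:**
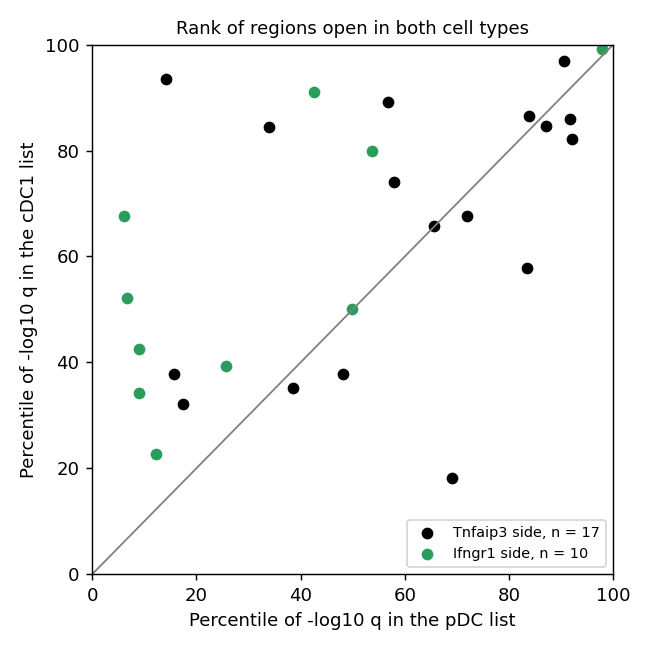
Percentile of −log10 q within the cDC1 list (y axis) and within the pDC list (x axis) for the 27 shared regions, with the line of equal rank, which is not a line of equal strength since the lists differ in length. All 10 regions of the Ifngr1 side lie above the line, while the 17 of the Tnfaip3 side lie on both sides of it.

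Next to the stated Tnfaip3 position, 6 regions lay within 25 kb, and 2 of them were strong in cDC1. The region at 18.735 Mb (18734516 to 18735605) was open in both cell types and was the strongest of the Tnfaip3 side in cDC1, with a −log10 q of 432 (percentile 97.0). In pDC it had a −log10 q of 76.3 (percentile 90.5). Its highest summits lay 6 bp apart. It held 10 footprints in cDC1, with 325 to 1027 tags, and 8 in pDC, with 163 to 302 tags. After scaling, the difference between the cell types was within 2-fold.

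Tag counts were scaled as follows. Footprints of both lists that each covered at least 50% of the other were paired, and the cDC1 to pDC ratio of tag counts was divided by its median over all 91319 pairs, 3.28, so that a typical pair has a scaled ratio of 1. Each region took its pair with the most tags. The region at 18.735 Mb had 925 cDC1 and 228 pDC tags there, a scaled ratio of 1.24 (exact 95% interval 1.07 to 1.44). Its 4 pairs ranged from 0.969 to 1.25. As tags may share fragments, the exact intervals cover counting error only and may be too narrow.

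The region at 18.729 Mb (18729098 to 18729612) had the highest scaled ratio of the 23 regions with a footprint pair. It was the neighbour of the former and had a −log10 q of 319 in cDC1 (percentile 93.6) and of 4.34 in pDC (percentile 14.2). In cDC1 it had a footprint of 112 bp from 18729321 to 18729432 with 887 tags, followed by one of 51 bp with 817 tags. The pDC footprint at the same start was 77 bp long and had 32 tags. The scaled ratio was 8.46 (5.95 to 12.4), from 1 pair, which was no longer a pair when 80% of both footprints had to be covered. By the highest tag counts it was 6.38. So 1 of these neighbouring regions was within 2-fold and the other was higher in cDC1. The fold enrichments, the peak caller's ratio over its background, were 15.4 and 2.91.

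The other 4 regions near the stated position ranked below the median of each list that held them. In cDC1 the percentiles were 14.9 at 18.719 Mb, 11.7 at 18.722 Mb and 37.8 at 18.744 Mb. In pDC they were 46.4 at 18.711 Mb and 48.1 at 18.744 Mb, close to the median of that list. The regions at 18.719 Mb (18719207 to 18719522) and 18.722 Mb (18721951 to 18722228) were found in cDC1 only. They had a −log10 q of 6.31 and 5.35 and at most 74 and 63 tags. That at 18.711 Mb (18710841 to 18711246) was found in pDC only, with a −log10 q of 11.9 and up to 92 tags in 8 footprints. That at 18.744 Mb (18743762 to 18744144) was open in both, at 17.4 in cDC1 and 12.6 in pDC, and its footprints formed no pair.

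**Figure D4:**
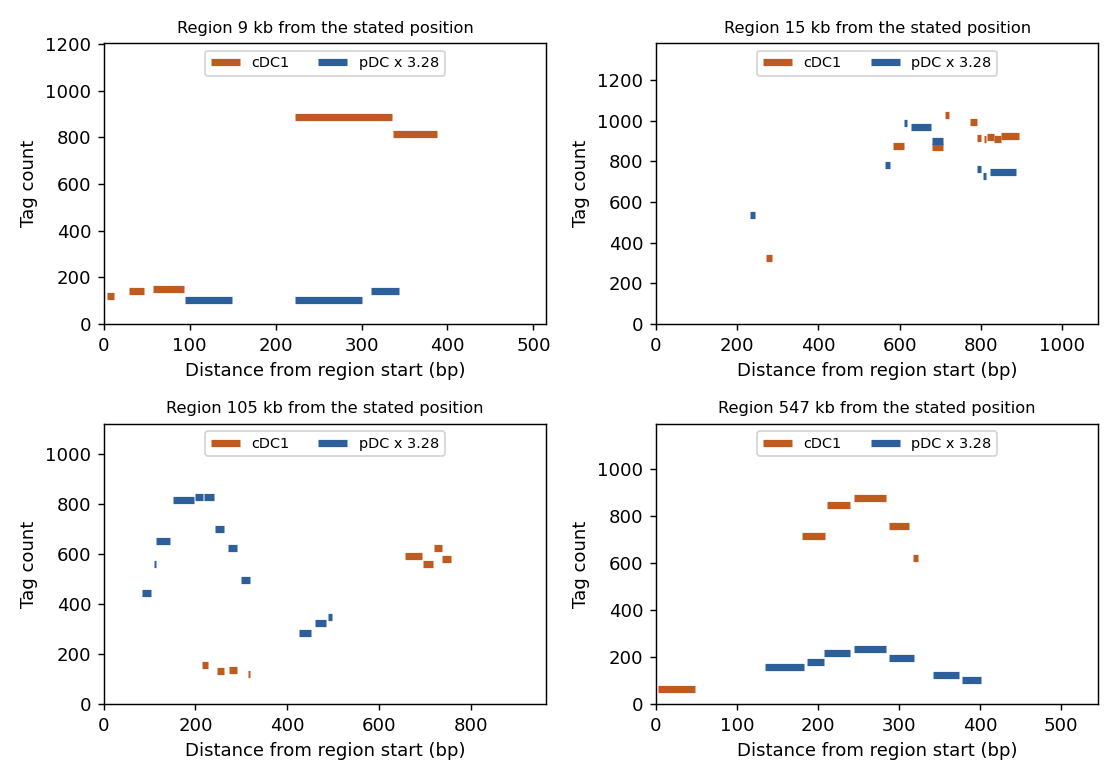
Footprints (bars, drawn to their width) in 4 regions by the distance from the region start (x axis, bp) and their tag count (y axis); pDC counts are multiplied by 3.28. The 4 regions are those at 18.729, 18.735, 18.824 and 19.267 Mb, in this order from top left: cDC1 is higher in the first and last, the lists are close in the second, and in the third each list is high at a different end.

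Of the 27 regions open in both cell types, 23 had a pair, and their scaled ratios ran from 0.186 to 8.46 with a median of 0.963. At least 2-fold higher in cDC1 were 6 (26.1%, 12.5 to 46.5%), against 8.93% of the 31914 regions with a pair in the series. At least 2-fold higher in pDC were 3 (13.0%, 4.54 to 32.1%), against 12.6%. The 14 others lay within 2-fold. The series-wide share for pDC lay inside the window's counting interval and that for cDC1 below it. The latter did not hold with stricter pairs or by fold enrichment. With pairs at 80% of both footprints, 3 of 17 regions passed the limit toward cDC1 (17.6%, 6.19 to 41%), against 6.9% in the series. By fold enrichment, 3 of 27 passed it (11.1%, 3.85 to 28.1%), against 5.8%. Both series-wide shares lay inside these intervals. On the cDC1 side of the limit the nearest members inside had 2.23 and the nearest outside 1.47, and on the pDC side 0.313 and 0.601.

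After the region at 18.729 Mb, the highest ratio was that of the region at 19.267 Mb (19266595 to 19267140) on the Ifngr1 side. Its −log10 q was 266 in cDC1 and 10.5 in pDC, with summits 7 bp apart. It had 4 pairs, and their scaled ratios were 3.72 to 3.97. At one of them the footprint had the same borders in both lists, 19266840 to 19266878, with 878 cDC1 and 72 pDC tags, a scaled ratio of 3.72 (2.93 to 4.80). The lists thus placed the footprint alike while the tags differed.

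The other 4 regions at least 2-fold higher in cDC1 had smaller ratios. The region at 18.837 Mb (18836651 to 18837167) had 772 cDC1 and 92 pDC tags, a scaled ratio of 2.56 (2.06 to 3.22). The region at 19.242 Mb (19241924 to 19242498) had 341 and 43 tags, a scaled ratio of 2.42 (1.76 to 3.41). The regions at 18.773 Mb (18773342 to 18773868) and 19.304 Mb (19303866 to 19304357) both stood at 2.23, with intervals of 1.74 to 2.89 and 1.78 to 2.82. All but the region at 18.837 Mb of these 4 had an interval that reached below 2. By the fold enrichment of the highest summit, divided by its own median ratio over the series of 1.45, 3 passed the 2-fold limit toward cDC1: those at 18.729 Mb (3.66), 18.773 Mb (2.91) and 19.267 Mb (2.08).

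**Figure D5:**
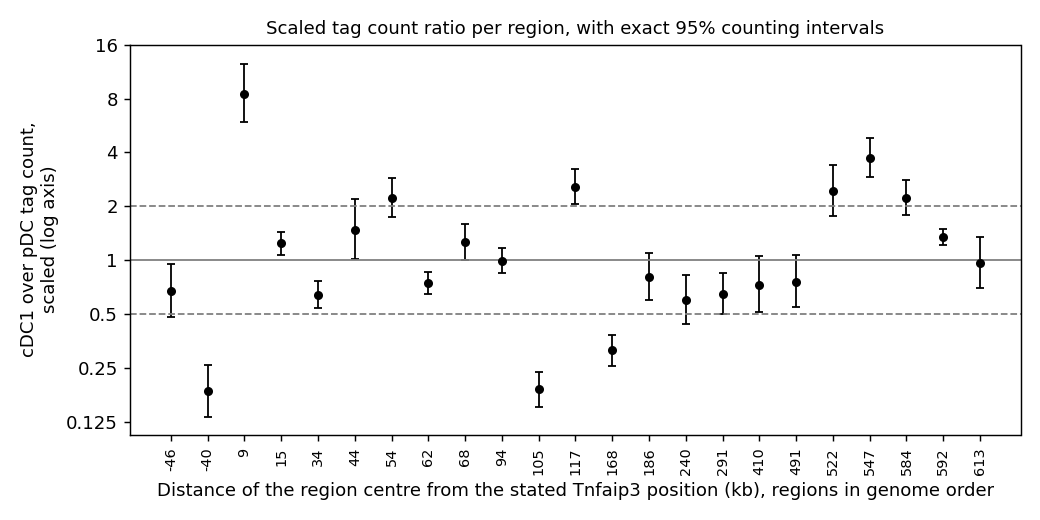
Scaled ratio of cDC1 to pDC tag count (y axis, log scale) for the 23 regions with a pair, in genome order and labelled by distance from the stated Tnfaip3 position (x axis, kb). Bars are exact 95% intervals for counting error and dashed lines the 2-fold limits; 6 points lie above the upper line and 3 below the lower one, which are all on the Tnfaip3 side.

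The 3 regions at least 2-fold higher in pDC were at 18.680 Mb, 18.824 Mb and 18.887 Mb. The region at 18.680 Mb (18679692 to 18680185), below Tnfaip3, had 61 cDC1 and 100 pDC tags, and a scaled ratio of 0.186 (0.133 to 0.259), or 5.37-fold higher in pDC. Its −log10 q was 7.31 in cDC1 and 28.2 in pDC, the higher value being that of the shallower list. The region at 18.887 Mb (18887135 to 18888044) had 201 and 196 tags, and a scaled ratio of 0.313 (0.256 to 0.383), or 3.19-fold higher in pDC. Its −log10 q was also higher in pDC, 52.3 against 43.4.

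In the region at 18.824 Mb (18824362 to 18825326) the 2 cell types had their highest summits 498 bp apart, the largest distance in the window. In pDC the highest tag counts, 249 to 252, were in 3 footprints from 18824512 to 18824601, and no pDC footprint lay beyond 18824859, although the pDC interval ran to 18825168. In cDC1 the 4 footprints at this left end had 121 to 156 tags, while 4 others from 18825018 to 18825118 had 561 to 625. The left end was higher in pDC and the right end was listed with footprints in cDC1 only. The scaled ratio of 0.191 (0.152 to 0.238) is that of a pair at the left end. By the highest tag count of each list anywhere in the region, the ratio was 0.767 when divided by the median of that measure (3.24), and by fold enrichment 0.791, both within 2-fold.

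The next lowest ratios were within 2-fold. The region at 18.960 Mb (18959844 to 18960266) had 126 and 64 tags, a scaled ratio of 0.601 (0.441 to 0.825). The region at 18.753 Mb (18753269 to 18753978) had the second highest −log10 q of pDC in the window, 84.2 (percentile 92.1), and 155 in cDC1 (percentile 82.1). Its pair of footprints with 411 and 195 tags gave 0.643 (0.541 to 0.767), and it held 13 pDC but 5 cDC1 footprints.

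Of 3 other shared regions above Tnfaip3, all were within 2-fold, and 1 had an interval that held 1. The region at 18.814 Mb (18814028 to 18814573) had 621 and 191 tags in its highest pair, a scaled ratio of 0.993 (0.843 to 1.17). It had 7 pairs, the most of the window, with ratios of 0.603 to 1.12. In 2 of them, from 18814349 to 18814358 and from 18814364 to 18814373, the footprints had identical borders in both cell types. The region at 18.782 Mb (18781815 to 18782790) had a −log10 q of 194 and 82.8 and a scaled ratio of 0.747 (0.651 to 0.860), with 21 cDC1 and 6 pDC footprints. Its summits lay 3 bp apart. The region at 18.764 Mb (18763567 to 18764088) had a −log10 q of 70.7 and 31.8. Its measures differed: the pair gave 1.47 (1.01 to 2.20), and the highest tag counts of 226 and 122 gave 0.573.

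The strongest region of the window in both lists lay on the Ifngr1 side, at 19.311 Mb (19311109 to 19312142). Its −log10 q was 603 in cDC1 (percentile 99.2) and 136 in pDC (percentile 97.9). A footprint that started at 19311574 in both lists had 2040 cDC1 and 463 pDC tags, and the scaled ratio was 1.35 (1.22 to 1.49). By fold enrichment, 10.6 and 11.3, the scaled ratio was 0.645, on the other side of 1. The direction of this small difference therefore depended on the measure. Most footprints of the lists were offset here: 5 of 6 in cDC1 ended by 19311465, and 9 of 10 in pDC started at 19311503 or later. The other cDC1 footprint, that at 19311574 with the most tags, lay among those of pDC. The summits were 91 bp apart.

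Over all 27 regions, the highest summits of both lists lay within 50 bp in 15 (55.6%, 37.3 to 72.4%), against 70.1% in the series, with a median distance of 42 bp against 30 bp. Of the cDC1 footprints 19.3% (15.7 to 23.5%) and of the pDC footprints 28.3% (22.8 to 34.5%) were covered by at least 50% by a footprint of the other list, against 26.9% and 40.7%. The footprints of pDC took up 32.8% of its interval bases here and 25.3% in the series, and those of cDC1 25.9% and 24.1%. Most footprints of both lists together were held by the regions at 18.782 and 18.814 Mb, with 27 each. The region at 19.011 Mb (19010786 to 19011710) followed with 8 in cDC1 and 14 in pDC, at a −log10 q of 30.5 and 13.3.

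The 43 regions found in cDC1 only had a −log10 q from 2.05 to 221, with a median of 12.3. The strongest was at 19.334 Mb (19334082 to 19334580), at the upper end of the window, with a −log10 q of 221 (percentile 88.3), 8 footprints and up to 779 tags. The next were at 19.249 Mb (19248735 to 19249233), 19.020 Mb (19020150 to 19020789), 19.290 Mb (19289950 to 19290892) and 18.890 Mb (18890371 to 18890837). Their −log10 q ran from 114 to 132 and their highest tag counts from 383 to 622. Of the 5, 4 lay on the Ifngr1 side. One region found in cDC1 only had no footprint.

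The tag counts of these regions were also set on the pDC scale. Divided by 3.28, the highest tag count stayed above 67, the first quartile of the highest pDC tag count of a region over the series, in 15 of 43 (34.9%, 22.4 to 49.8%), against 27.2% of all regions found in cDC1 only. The region at 19.334 Mb stood at 238 after this division. The lists give tags only inside called peaks, so whether these regions differ in pDC reads was not tested.

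The 6 regions found in pDC only had a median −log10 q of 11.9, against 13.3 for the shared pDC intervals. The strongest were at 18.798 Mb (18797829 to 18798306), with a −log10 q of 39.5 (percentile 77.1), 11 footprints and up to 171 tags, and at 18.929 Mb (18929396 to 18930135), with 35.4 (percentile 74.6), 8 footprints and up to 154 tags. Those at 18.661 Mb (18661289 to 18661591), 18.711 Mb and 19.094 Mb (19093630 to 19094041) had a −log10 q of 10.5 to 11.9. The last, at 19.280 Mb (19279712 to 19279911), had 3.33. The region at 18.798 Mb lay beside one found in cDC1 only, at 18.796 Mb (18796485 to 18796937), which had a −log10 q of 33.7 and up to 191 tags. Adjacent regions of opposite class thus stood between shared regions above Tnfaip3.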

How the data were processed

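Omni-ATAC-seq of cDC1 and pDC was analysed, with 2 replicate libraries per cell type that the authors merged. According to the methods, the authors used Trim Galore, Bowtie2 (mm9), samtools, MACS2 for peaks and HINT-ATAC for footprints inside them; the sources used here state no versions. The methods name another mouse build in general, but mm9 for the dendritic cells, as do the labels. The deposited peak lists hold, per summit, a fold enrichment (a ratio over the MACS2 background), a −log10 q and a score. The deposited score is a whole-number form of the −log10 q and was not used. The methods name the MACS2 option for a constant background, yet up to 36 different −log10 q values occurred at 1 fold enrichment; this was not resolved, so what the fold enrichment is relative to is uncertain. The methods also name a filter on the q-value at 10, but the deposited lists go down to a −log10 q of 1.3 and were used whole, with the limit of 10 as an alternative. The deposited footprint value was read as a tag count without scaling by the authors, with totals of 185970648 in cDC1 and 44482493 in pDC, and an unstated counting window.

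Peak lines of identical borders were made 1 interval, keeping the summit of largest −log10 q. Footprints were paired 1 to 1, most shared bases first. The regions named were, by rule, the 10 with the largest −log10 q in each list, the 5 strongest found in 1 list only, the 5 highest and 5 lowest scaled ratios, the 5 with most footprints and those within 25 kb of the stated gene position. The regions at 19.304, 19.280 and 18.796 Mb were named after their values were seen. The window, lists and rules were chosen with earlier results of these data known, and the division at 19 Mb, the median rank difference as reference and the series shares for other measures after values were seen. Shares have 95% Wilson intervals and tag ratios exact (Clopper-Pearson) 95% intervals. Both cover counting error only, since each cell type has 1 merged list. The tag intervals may also be too narrow, since PCR reads carry no molecular identifiers and both fragment ends may be counted. The general methods state that duplicates were removed. Python 3.11.15, numpy 2.4.6, pandas 2.3.3, scipy 1.17.1 and matplotlib 3.10.9 were used. Footprint pairing, footprint sharing and the 2-fold call were tested on simulated lists. The footprints of these lists had identical borders and planted changes well above 2-fold, so partly overlapping footprints and the other steps were not tested. The RefSeq promoters are of GRCm38.p6. An mm9 genome and annotation were not used here, so no interval was assigned to a gene part, no interval sequence is shown and the planned marker lookup was not run.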

Additional observations from a re-analysis of the deposited data

How the results depend on the processing

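No paired analysis was possible because the lists hold only merged replicates; for the same reason no replicate could be left out. With a −log10 q of at least 10, there were 21 pDC intervals (33 with all), 15 regions open in both (27) and 5 pDC intervals on the Ifngr1 side (12). At a −log10 q of at least 50, there were 25 cDC1 and 7 pDC intervals, 6 regions open in both, 19 in cDC1 only and 1 in pDC only, 24% of cDC1 intervals were shared, and 191 cDC1 and 73 pDC footprints were left. With the cDC1 peak list limited to the pDC length, 35 cDC1 intervals remained in the window, 17 on the Tnfaip3 and 18 on the Ifngr1 side. The shared part was then 57.1% for cDC1 and 60.6% for pDC intervals, and 70.6% for cDC1 intervals on the Tnfaip3 side; 15 regions were cDC1 only and 13 pDC only, and 24% of cDC1 footprints were shared. At an overlap of 1 bp, 38.5% of pDC footprints were shared. With the cDC1 footprint list limited to the pDC length, 209 cDC1 footprints remained, and 26.3% of cDC1 and 20.4% of pDC footprints were shared. Regions at least 2-fold higher in cDC1 numbered 3 in place of 6 with pairs at 80% of both and by fold enrichment. Those higher in pDC numbered 5 in place of 3 with pairs at 1 bp and by the highest tag count, and 6 at a 1.5-fold limit. Clusters numbered 37 at a gap of 5 kb and 8 at 20 kb. The values by side were recomputed as alternatives chosen after seeing the data. Of the recomputed ratios of single regions, 104 stayed inside their counting interval and 28 left it. None that was 2-fold or more crossed 1, but that at 19.304 Mb fell from 2.23 to 1.09 by fold enrichment. With pairs at 80% of both, 17 regions kept a ratio. Of those that had been 2-fold or more, the regions at 18.729, 18.773, 18.887 and 19.304 Mb had none. One alternative scaled by the ratio of mean tag counts, 2.55 in place of 3.28. It moved the region at 18.814 Mb from 0.993 to 1.28 and that at 18.782 Mb from 0.747 to 0.961. Whether an interval holds 1 thus depends on the scale. The causes of these shifts were not tested.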
